A study of Lepidium sativum with 107 samples.

Results

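The micropylar endosperm of garden cress (Lepidium sativum) 1 h after sowing was compared with the radicle end of the dry seed. The endosperm group (1 h cap below) held 4 arrays of excised micropylar endosperms, and the dry group (dry end) held 4 arrays of a seed part made up of radicle plus micropylar endosperm. These 8 arrays were all the arrays of their 2 labelled groups, out of 107 arrays in 27 groups. All 13895 probe sets of the deposited table that were not array controls entered the comparison. The radicle with lower hypocotyl at 1 h (1 h radicle, 4 arrays) is given beside the 1 h cap, because the dry end holds that tissue as well. All groups were seeds of the FR14 line with no mutation or added agent, kept on wet filter disks at 24 °C in continuous light, except that the dry groups were taken unsown. Each 1 h sample pooled 100 organs, per the labels' protocols, and no label gives the number of organs behind a dry-end sample. Whether replicates came from separate seed cultures is not stated, so the spread behind the p-values could be technical. That spread was pooled over all 107 arrays of the series and not taken from the compared arrays alone. The number of arrays limits the precision.

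The micropylar endosperm is the living cell layer over the radicle tip, and in cress and in the related plant Arabidopsis it must weaken and break before the radicle can emerge. A dry seed carries stored messenger RNA from maturation, including transcripts for storage proteins, oil body proteins and proteins that protect drying cells. With water uptake respiration resumes, stored transcripts are degraded and new ones are made, while abscisic acid (ABA) restrains germination and gibberellin promotes it.

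Values are log2 expression, so a difference of 1 is a doubling. Group means below a brightness limit of 3.59 (their 25th percentile) are called dim, meaning treated as not clearly above background. The limit was set from the values themselves, with no measured background. With 1 dim group, the size of a passing difference is given as a lower bound, and that of any other difference is not exact. A transcript passed at an adjusted p under 0.05 in limma. Each probe set is keyed by an Arabidopsis locus code, and gene roles given here are those known from Arabidopsis. Because the dry end holds radicle and cap together, the share of each tissue and the hour of water uptake cannot be told apart in these differences. In whole tissue, fewer cells of a type and less RNA per cell cannot be told apart either.

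In the 1 h cap 1136 transcripts (8.18% of 13895) passed against the dry end, 593 of them higher (4.27%) and 543 lower (3.91%). These shares are the background for every count of passing list members below. The median difference over all probe sets was -0.02, and the differences ran from -2.18 to 2.71. A log2 difference of at least 1 in size went with 165 of the passing transcripts (1.19%), 117 higher and 48 lower. The 4 and 4 arrays did not overlap for 1762 transcripts (12.7%). Without replicate 4 of the cap 737 transcripts passed, and the lower calls numbered 336 without replicate 3 and 341 without replicate 4 of the cap. Against the same dry arrays 408 transcripts passed in the 1 h radicle (2.94%), and 1721 passed between the 1 h cap and the 1 h radicle (12.4%). The radicle count was 259 without replicate 3 of the radicle, 122 with array weights and 20 with the compared arrays alone, and the count between the tissues was 1103 with array weights and 741 with the compared arrays alone. Those 3 comparisons share arrays. Correlations between replicates were 0.966 to 0.971 in the cap, 0.933 to 0.959 in the radicle and 0.958 to 0.966 in the dry end.

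The endosperm gene EPR1 (AT2G27380), an extensin-like wall protein gene active in the endosperm of germinating Arabidopsis seeds, separated the 3 groups. It stood at 9.48, 9.38, 9.35 and 9.47 in the 1 h cap, at 4.70, 4.65, 4.16 and 4.78 in the 1 h radicle, and at 6.68, 6.63, 6.64 and 7.10 in the dry end. The cap arrays were all highest, the radicle arrays all lowest, and the dry end lay between them. EPR1 was 6.32-fold higher in the cap than in the dry end (2.66 ± 0.22 log2, SE, adjusted p = 5.55e-16), and the 1 h radicle differed from the same dry arrays by -2.19 ± 0.22 (adjusted p = 9.46e-12). Of 3 measured endosperm markers EPR1 alone passed. ICE1 (AT3G26744), a regulator of endosperm breakdown, differed by -0.17 ± 0.14, and ALE1 (AT1G62340), a protease of the endosperm side of the seed, was dim in all 3 groups.

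Of the markers of neighbouring tissues, 4 of 12 for root, 4 of 10 for shoot and 0 of 5 for seed coat were dim in both the cap and the dry end. The mean level over 12 measured markers of root tip, root cap and embryo axis was 3.61 to 3.78 on the cap arrays, 3.74 to 3.82 on the radicle arrays and 3.64 to 3.78 on the dry-end arrays. One of the 12 passed, PLT1 (AT3G20840), a regulator of the root stem cell niche, at 4.05 ± 0.09 in the cap and 3.47 ± 0.25 in the dry end (SD, n = 4 each; at least 0.57 ± 0.19 higher, adjusted p = 0.0496). PLT1 lost its call in 6 of the 8 fits that left out 1 array, with adjusted p up to 0.198 over all alternatives. Of 10 measured cotyledon and shoot markers none had a positive difference and 2 passed as lower (beside 3.91% of all probe sets). Their mean level was 3.61 to 3.78 on the cap arrays, 3.71 to 3.87 on the radicle arrays and 3.89 to 4.04 on the dry-end arrays.

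AS1 (AT2G37630), a regulator of leaf development, had 5.19, 5.22, 4.80 and 5.17 in the 1 h cap, against 6.49, 6.32, 6.14 and 6.25 in the dry end. Every cap array lay below every dry array. The difference was -1.21 ± 0.24 (adjusted p = 0.000335), beside -0.73 ± 0.24 (adjusted p = 0.0825) in the 1 h radicle. REV (AT5G60690), a regulator of organ polarity, was at 3.77 ± 0.22 in the cap and 4.16 ± 0.14 in the dry end (SD, n = 4 each), a call lost in 6 of the 8 fits that left out 1 array (adjusted p 0.0442, and up to 0.192). Of 5 measured seed coat markers TT12 (AT3G59030), a flavonoid transporter, was lower, at 4.55, 4.66, 4.50 and 4.48 in the cap, against 5.16, 5.25, 5.02 and 5.81 in the dry end (-0.76 ± 0.19, adjusted p = 0.00541). Without replicate 4 of the dry end TT12 did not pass (adjusted p = 0.0611). The part of cotyledon or seed coat tissue in these results was not tested.

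**Figure D1:**
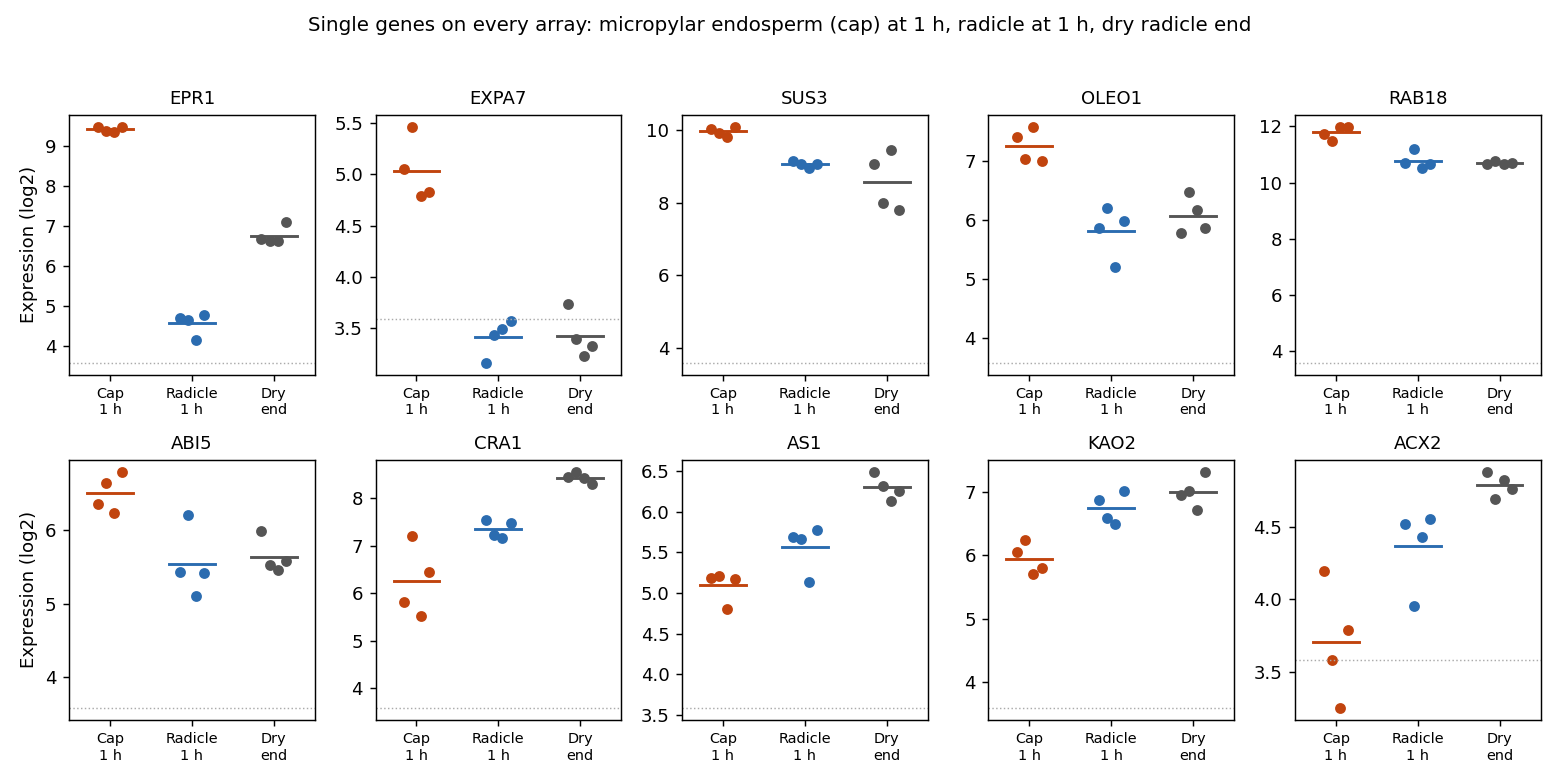
Log2 expression (vertical axes) of 10 genes on every array of the 1 h cap (left), the 1 h radicle (middle) and the dry end (right). Points are arrays, bars are group means, and the dotted line is the brightness limit of 3.59. EPR1, EXPA7, SUS3, OLEO1, RAB18 and ABI5 were higher on every cap array than on any dry array, and CRA1, AS1, KAO2 and ACX2 were lower on every cap array.

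Of the wall genes, a single expansin stood far above the dry end. Expansins loosen the wall by letting its polymers slip, and EXPA7 (AT1G12560) is best known from root hairs of Arabidopsis. EXPA7 had 5.06, 5.47, 4.79 and 4.83 in the 1 h cap, against 3.16, 3.43, 3.49 and 3.57 in the 1 h radicle and 3.74, 3.39, 3.23 and 3.32 in the dry end. Its mean was above the brightness limit in the cap alone among these 3 groups. The difference from the dry end was at least 1.61 ± 0.12 (adjusted p = 5.29e-19), and the difference from the radicle was at least 1.62 ± 0.12 (adjusted p = 9.37e-20). These p-values rest on the spread pooled over all arrays, while the SD of EXPA7 was 0.31 in the cap and 0.22 in the dry end. Against the dry end EXPA7 passed in all 15 alternatives, with an adjusted p of up to 0.000526.

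EXPA2 (AT5G05290), an expansin of germinating Arabidopsis endosperm, had 5.54, 4.67, 4.80 and 4.26 in the cap, against 4.19, 3.91, 3.74 and 3.77 in the dry end. Its arrays did not overlap, but it did not pass (0.92 ± 0.31, adjusted p = 0.0517). It passed under 5 of 15 alternatives and had an adjusted p of up to 0.235. EXPB3 (AT4G28250), a beta-expansin, was lower in the cap, at 3.76 ± 0.21 against 4.51 ± 0.33 in the dry end (SD, n = 4 each; -0.76 ± 0.17, adjusted p = 0.00109). In all, 1 of 22 measured expansins was higher and 1 lower, with a median of -0.16.

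None of 21 xyloglucan endotransglucosylases, which cut and rejoin wall xyloglucan, passed, and 12 of them were dim in both the cap and the dry end. Their differences ran from -0.59 to 0.09. None of 10 other wall enzymes and cellulose synthesis genes passed (-0.16 to 0.27). MAN7 (AT5G66460), an endo-mannanase, differed by 0.04 ± 0.10, with a 95% interval of -0.15 to 0.23. XTH18 (AT4G30280), XTH19 (AT4G30290) and the pectin methylesterase PME3 (AT3G14310) were dim in all 3 groups.

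Transcripts of the mitochondrial genome formed the block with the most higher members of the 36 lists. Of 47 mitochondrial loci 22 were higher in the 1 h cap (46.8% beside 4.27% of all probe sets) and none was lower, with a median of 0.67 against -0.02 over all probe sets. The passing differences ran from 0.56 to 2.71, and 5 of the 22 started from a dry-end mean under the brightness limit. Of 25 loci that did not pass, 7 were dim in both groups. Probes for these loci read RNA labelled with a 3' amplification kit, and plant mitochondrial transcripts mostly lack stable poly(A) tails, whose part in the result was not tested.

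MATR (ATMG00520), an intron maturase gene, had 7.74, 6.24, 7.79 and 6.54 in the 1 h cap, 6.52, 6.46, 7.87 and 6.45 in the 1 h radicle, and 4.03, 4.14, 4.31 and 5.00 in the dry end. Both tissues at 1 h lay above every dry array. The difference was 2.71 ± 0.29 in the cap (6.53-fold, adjusted p = 1.95e-11) and 2.45 ± 0.29 in the radicle (adjusted p = 3.13e-09), with 0.25 ± 0.29 between the tissues (adjusted p = 0.638). COX3 (ATMG00730), a subunit of cytochrome c oxidase, had 9.79, 8.65, 10.07 and 8.97 in the cap, 8.51, 7.62, 9.09 and 8.07 in the radicle, and 6.83, 7.00, 6.79 and 7.61 in the dry end. It was higher in the cap than in the dry end by 2.31 ± 0.28 (adjusted p = 3.14e-09) and higher in the radicle by 1.26 ± 0.28 (adjusted p = 0.00417). COX3 also differed between the cap and the radicle (1.05 ± 0.28, adjusted p = 0.00748). The SD of MATR was 0.80 in the cap and 0.43 in the dry end, and that of COX3 was 0.67 and 0.38. For the cap against the dry end, MATR and COX3 each had an adjusted p of up to 0.00124 under the alternatives.

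RPL5-MT (ATMG00210), a mitochondrial ribosomal protein gene, was higher by 2.43 ± 0.31 in the cap and by 1.52 ± 0.31 in the radicle (adjusted p = 8.59e-09 and 0.00118). For RPS4-MT (ATMG00290) and COB-MT (ATMG00220, cytochrome b) the cap differed by 1.55 ± 0.34 and 1.46 ± 0.28 (adjusted p = 0.000984 and 0.000167). The radicle values of both, 0.88 ± 0.34 and 0.38 ± 0.28, did not pass (adjusted p = 0.147 and 0.585). ATP1 (ATMG01190), a subunit of ATP synthase, was at 12.07 ± 0.18 in the cap and 11.06 ± 0.22 in the dry end (SD, n = 4 each; adjusted p = 0.00106). RPS7-MT (ATMG01270), another ribosomal protein gene, was at 4.38 ± 0.10 in the cap and 3.56 ± 0.19 in the dry end (SD, n = 4 each; at least 0.82 ± 0.22, adjusted p = 0.0106). NAD3 (ATMG00990), a subunit of complex I, was at 7.10 ± 0.39 in the cap and 6.22 ± 0.09 in the dry end (0.88 ± 0.28, adjusted p = 0.0314), a call lost in 5 of the 8 fits that left out 1 array (adjusted p up to 0.169). With MATR and COX3 these make up the 8 of 13 loci with a symbol that passed. Among those that did not pass, NAD4 (ATMG00580), a subunit of complex I, differed by 0.10 ± 0.27 (12.04 ± 0.15 in the cap, 11.94 ± 0.19 in the dry end), and ATP9 (ATMG01080) by 0.10 ± 0.27. Of the 47 loci 9 passed as higher in the 1 h radicle against the same dry arrays, and 10 passed as higher in the cap than in the radicle.

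Replicates of 1 group differed on these loci. The mean over all 47 was 6.27, 5.75, 6.35 and 5.78 in replicates 1 to 4 of the cap, 5.69, 5.39, 6.06 and 5.71 in those of the radicle, and 5.26, 5.16, 5.18 and 5.38 in those of the dry end. Replicates 1 and 3 of the cap and replicate 3 of the radicle were the high ones, and no dry array reached the lowest array of either tissue at 1 h. The number of passing loci was 18 to 22 with any 1 array of the cap or the dry end left out.

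**Figure D2:**
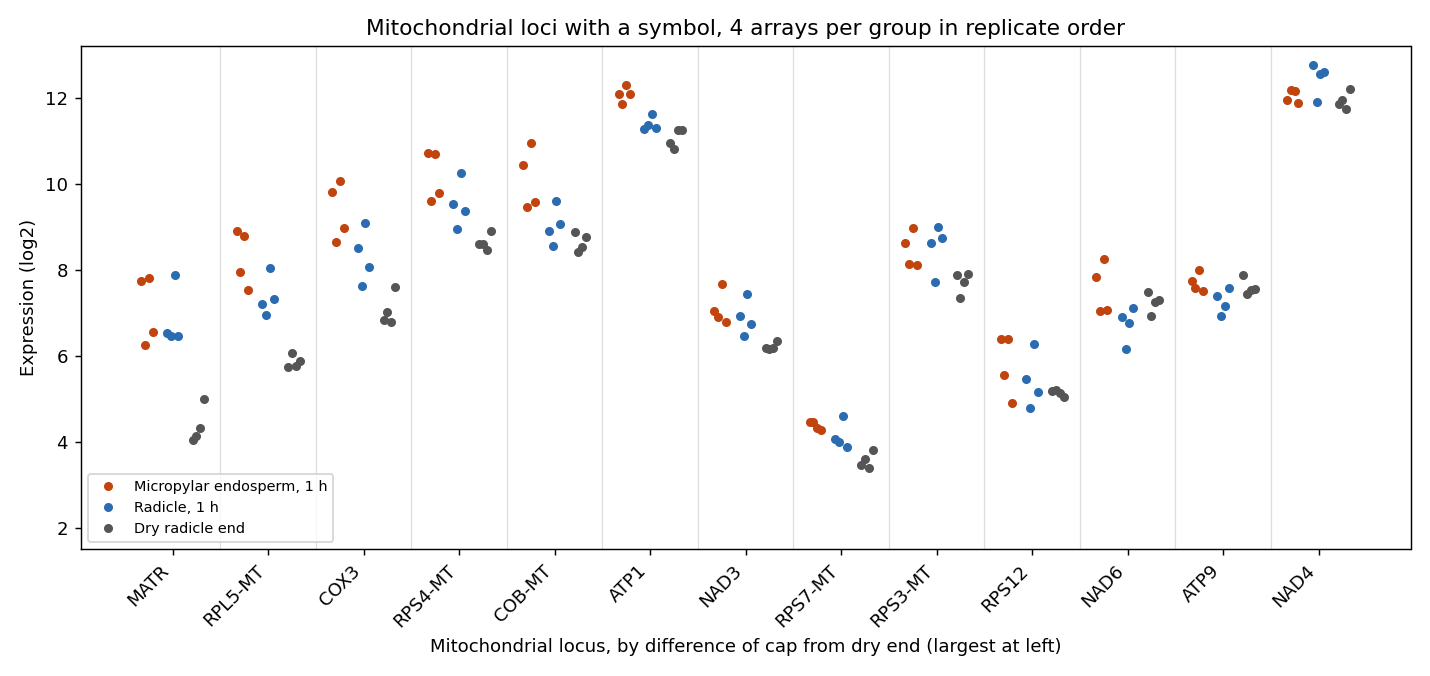
Log2 expression (vertical axis) of the 13 mitochondrial loci with a symbol, on 4 arrays each of the 1 h cap (left in each column), the 1 h radicle (middle) and the dry end (right), with loci ordered by the difference of the cap from the dry end. MATR, RPL5-MT and COX3 were highest above the dry end in both tissues, while NAD4 and ATP9 overlapped it.

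Genes for seed reserves passed in both directions. CRA1 (AT5G44120), a cruciferin storage globulin, was the lowest-lying of all transcripts relative to the dry end. It had 5.82, 7.22, 5.52 and 6.45 in the 1 h cap, 7.54, 7.23, 7.17 and 7.49 in the 1 h radicle, and 8.44, 8.56, 8.42 and 8.31 in the dry end. All 1 h arrays lay below the dry arrays, and the cap arrays spread more than the others (SD 0.75 in the cap, 0.18 in the radicle and 0.10 in the dry end). CRA1 was 4.54-fold lower in the cap (-2.18 ± 0.24, adjusted p = 3.49e-11), beside -1.08 ± 0.24 in the radicle (adjusted p = 0.00317). In the cap the adjusted p of CRA1 was up to 0.00149 under the alternatives. PAP85 (AT3G22640), a vicilin-like storage protein, was at 4.65 ± 0.25 in the cap and 5.26 ± 0.28 in the dry end (SD, n = 4 each; adjusted p = 0.00153, but 0.0597 with the 8 arrays alone). The other 7 of 9 measured storage protein genes did not pass, and 4 of the 9 were dim in both groups. SESA5 (AT5G54740), a 2S albumin gene, overlapped between the groups (4.26 to 5.36 in the cap, 4.21 to 5.89 in the dry end).

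Oil body proteins, which coat the oil droplets of seed cells, included 2 higher members of 5 (beside 4.27% of all probe sets). OLEO1 (AT4G25140), an oleosin, had 7.42, 7.03, 7.58 and 7.00 in the 1 h cap, against 5.78, 6.48, 6.17 and 5.87 in the dry end. Every cap array was above every dry array, and the difference was 1.18 ± 0.22 (2.27-fold, adjusted p = 6.13e-05). In the 1 h radicle OLEO1 averaged 5.82 ± 0.43 (SD, n = 4), with a difference of -0.26 ± 0.22 from the dry end (adjusted p = 0.643). CLO2 (AT5G55240), a caleosin, had 6.57, 4.79, 6.89 and 6.34 in the cap, against 5.23, 4.13, 4.86 and 4.74 in the dry end. Cap replicate 2 fell within the range of the dry arrays, and the difference was 1.41 ± 0.29 (adjusted p = 0.000342, but 0.0516 with the 8 arrays alone). OLEO5 (AT3G01570), another oleosin, did not pass in the cap (-0.50 ± 0.24, adjusted p = 0.197) and was lower in the radicle (-1.05 ± 0.24, adjusted p = 0.00486).

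Among 17 genes of storage oil breakdown and the glyoxylate cycle 3 were higher and 3 lower (beside 4.27% and 3.91% of all probe sets). ACX2 (AT5G65110), an acyl-CoA oxidase of long-chain fatty acids, had 4.20, 3.59, 3.25 and 3.79 in the 1 h cap, against 4.88, 4.69, 4.82 and 4.76 in the dry end. Its cap arrays were all lower (-1.08 ± 0.17, adjusted p = 4.7e-06), and across the 27 groups of the series the 1 h cap had the lowest mean. PMDH1 (AT2G22780), a peroxisomal malate dehydrogenase, was at 6.93 ± 0.12 in the cap and 7.78 ± 0.23 in the dry end (SD, n = 4 each; adjusted p = 0.0427), a call lost in each of the 8 fits that left out 1 array (adjusted p up to 0.111). The same gene was lower in the radicle (-1.10 ± 0.28, adjusted p = 0.0144).

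ICL (AT3G21720), isocitrate lyase of the glyoxylate cycle, was higher in the cap, with 8.85, 8.71, 9.02 and 9.13, against 8.19, 8.33, 8.49 and 8.07 in the dry end (0.66 ± 0.20, adjusted p = 0.0263). AIM1 (AT4G29010), an enzyme of fatty acid beta-oxidation, was higher by 0.65 ± 0.21 (adjusted p = 0.0314). Their arrays did not overlap, but ICL lost its call in 4 and AIM1 in 3 of the 8 fits that left out 1 array (adjusted p up to 0.0963 and 0.143). The lipase SDP1 (AT5G04040) and the peroxisomal transporter PXA1 (AT4G39850) did not pass, at 0.42 ± 0.16 and 0.82 ± 0.29 (adjusted p = 0.0922 and 0.0572).

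Transcripts for late embryogenesis abundant proteins and dehydrins, which protect cells in drying, split as well, 4 higher and 1 lower of 19 (median 0.05). Over all probe sets 4.27% were higher and 3.91% lower. RAB18 (AT5G66400), a dehydrin and a widely used ABA-responsive gene, had 11.73, 11.48, 11.97 and 11.99 in the 1 h cap, 10.70, 11.21, 10.52 and 10.66 in the 1 h radicle, and 10.66, 10.77, 10.66 and 10.70 in the dry end. The cap arrays stood above all others. RAB18 was 2.14-fold higher in the cap than in the dry end (1.10 ± 0.22, adjusted p = 0.00029), and the radicle differed from the dry end by 0.08 ± 0.22. ECP63 (AT2G36640), another protein of this family, was at 7.19 ± 0.24 in the cap and 5.99 ± 0.56 in the dry end (SD, n = 4 each; 1.20 ± 0.21, adjusted p = 2.69e-05). COR47 (AT1G20440), a cold-induced dehydrin, was higher by 0.55 ± 0.12 (adjusted p = 0.0005), whereas M10 (AT2G41280) was lower, at 5.46 ± 0.10 in the cap and 6.14 ± 0.28 in the dry end (adjusted p = 0.000235). EM1 (AT3G51810), a bright maturation gene, averaged 10.38 ± 0.23 in the cap and 9.88 ± 0.10 in the dry end and did not pass (0.50 ± 0.33, adjusted p = 0.411). Its arrays did not overlap, at 10.07 to 10.61 in the cap and 9.74 to 9.99 in the dry end. Under the alternatives the adjusted p of EM1 was 0.0565 to 0.592.

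The transcription factor ABI5 (AT2G36270), which binds the promoters of ABA-responsive seed genes, had 6.34, 6.63, 6.23 and 6.79 in the 1 h cap, 5.44, 6.20, 5.11 and 5.41 in the 1 h radicle, and 5.99, 5.53, 5.46 and 5.58 in the dry end. All cap arrays lay above all arrays of the other 2 groups. The difference from the dry end was 0.86 ± 0.17 (adjusted p = 0.000162), and the 1 h cap had the highest ABI5 mean of the 27 groups. VAL1 (AT2G30470), a repressor of the maturation programme, was also higher (4.60 ± 0.07 in the cap and 3.99 ± 0.18 in the dry end, SD, n = 4 each; adjusted p = 0.00186). ABI3 (AT3G24650), a master regulator of maturation, did not pass (0.39 ± 0.21, adjusted p = 0.285), although its cap arrays lay above its dry arrays.

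Of 15 measured seed transcription factors 2 were higher and 2 lower (beside 4.27% and 3.91% of all probe sets). AFP3 (AT3G29575), which binds ABI5, was lower in the cap, at 3.55 ± 0.07 against 3.91 ± 0.17 in the dry end (SD, n = 4 each; adjusted p = 0.0469). The AFP3 difference, at least 0.36 in size with a cap mean under the brightness limit, lost its call in 7 of the 8 fits that left out 1 array (adjusted p up to 0.187). HSFA9 (AT5G54070), a seed-specific heat shock factor, passed as lower but was dim in both groups, so no fold is given.

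None of 10 measured enzymes of ABA synthesis and breakdown passed (-0.40 to 0.41). CYP707A2 (AT2G29090), an ABA 8'-hydroxylase, had 4.83, 4.53, 4.61 and 4.96 in the 1 h cap, against 5.02, 5.09, 5.17 and 5.25 in the dry end. Its arrays did not overlap, yet it did not pass (-0.40 ± 0.26, 95% interval -0.92 to 0.13). NCED9 (AT1G78390), an enzyme of ABA synthesis, did not pass (0.13 ± 0.11, adjusted p = 0.553). The dry-end mean of NCED9 was dim (3.69 ± 0.15 in the cap and 3.56 ± 0.15 in the dry end), so that size is not exact. Of 22 ABA receptors, phosphatases and kinases 1 passed, HAI3 (AT2G29380), a protein phosphatase induced by ABA. HAI3 had 5.07, 4.79, 5.63 and 5.23 in the cap, against 4.08 to 4.35 on the dry-end arrays (2.03-fold, adjusted p = 0.019). Without replicate 3 of the cap it did not pass (adjusted p = 0.0942).

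KAO2 (AT2G32440), an oxidase early in gibberellin synthesis, was the 1 gene of 24 in the gibberellin list that passed. It had 6.05, 6.24, 5.70 and 5.80 in the 1 h cap, 6.88, 6.59, 6.50 and 7.02 in the 1 h radicle, and 6.95, 7.02, 6.71 and 7.32 in the dry end. The cap arrays were the lowest (-1.05 ± 0.18, adjusted p = 1.68e-05), and the radicle did not pass against the dry end (-0.25 ± 0.18, adjusted p = 0.553). RGL2 (AT3G03450), a repressor of gibberellin signalling in seeds, had 5.22, 6.00, 6.14 and 5.71 in the cap, against 5.42, 6.17, 5.77 and 5.75 in the dry end (-0.01 ± 0.20, 95% interval -0.41 to 0.39). GA3OX1 (AT1G15550), which makes active gibberellin, differed by -0.15 ± 0.12, and the gibberellin-regulated GASA6 (AT1G74670) was dim in all 3 groups.

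Other hormone lists each held 1 passing gene (1 of 14 for jasmonate, 1 of 17 for ethylene and 1 of 14 for auxin). Each share was below the 8.18% of all probe sets. AOC4 (AT1G13280), an allene oxide cyclase of jasmonate synthesis, was lower among 14 jasmonate genes, with 5.02, 4.75, 4.51 and 4.59 in the cap, against 5.62, 5.41, 5.45 and 5.32 in the dry end (-0.73 ± 0.14, adjusted p = 0.000126). JAZ3 (AT3G17860), a repressor of jasmonate responses, did not pass in the cap (0.45 ± 0.19, adjusted p = 0.138), although its cap arrays lay above its dry arrays. With the 8 arrays alone it passed (adjusted p = 0.0491). JAZ3 was higher in the radicle (0.83 ± 0.19, adjusted p = 0.00553), and the cap and the radicle differed by -0.38 ± 0.19 without passing (adjusted p = 0.195). EIN2 (AT5G03280), the membrane protein at the centre of ethylene signalling, was higher among 17 ethylene genes (0.52 ± 0.16, adjusted p = 0.0297), a call lost in 5 of the 8 fits that left out 1 array (adjusted p up to 0.181). ACO1 (AT2G19590), which makes ethylene, differed by -0.41 ± 0.20 (adjusted p = 0.215). GH3.5 (AT4G27260), an enzyme that conjugates auxin, was higher among 14 auxin genes by at least 0.73 ± 0.19 (4.01 ± 0.21 in the cap and 3.28 ± 0.27 in the dry end, SD, n = 4 each; adjusted p = 0.00717).

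None of 26 rapidly induced regulators of touch, wound and stress responses passed, with differences of -0.30 to 0.52. Of these 26 genes 11 were dim in both the cap and the dry end, and their median was 0.06.

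The list of low-oxygen response and fermentation held 2 higher members of 17 (beside 4.27% of all probe sets). Its median was -0.07, and 9 of the 17 differences were negative. The larger of the 2 passing differences was that of SUS3 (AT4G02280), a sucrose synthase of maturing Arabidopsis seeds. SUS3 had 10.03, 9.91, 9.82 and 10.10 in the 1 h cap, 9.14, 9.07, 8.96 and 9.08 in the 1 h radicle, and 9.08, 7.98, 9.46 and 7.81 in the dry end. The cap arrays were above all others, and the dry arrays were widely spread (SD 0.12 in the cap, 0.07 in the radicle and 0.81 in the dry end). The difference was 1.38 ± 0.23 (2.60-fold, adjusted p = 9.41e-06). LDH1 (AT4G17260), lactate dehydrogenase, was higher by 0.63 ± 0.20 in the cap (adjusted p = 0.0363), and the radicle stood at 0.64 ± 0.20 against the same dry arrays (adjusted p = 0.0608). The LDH1 arrays overlapped, at 4.29 to 5.24 in the cap and 3.73 to 4.77 in the dry end. LDH1 lost its call in the cap in 5 of the 8 fits that left out 1 array (adjusted p up to 0.184). PDC2 (AT5G54960), pyruvate decarboxylase of ethanol fermentation, did not pass (9.12 ± 0.22 in the cap and 8.57 ± 0.18 in the dry end, adjusted p = 0.0585), although its arrays did not overlap. The other 15 of the 17 low-oxygen genes did not pass, and 6 of the 17 were dim in both groups.

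GOLS2 (AT1G56600), a galactinol synthase that starts raffinose synthesis, was the 1 passing gene of 8 in its list, at 4.13 ± 0.35 in the cap and 3.67 ± 0.17 in the dry end (SD, n = 4 each; adjusted p = 0.00552). Without replicate 3 of the cap, or with the 8 arrays alone, GOLS2 did not pass. Its family member GOLS1 (AT2G47180) differed by 0.55 ± 0.27 in the cap (adjusted p = 0.219) and by -0.87 ± 0.27 in the radicle (adjusted p = 0.0575). Between the cap and the radicle GOLS1 differed by 1.42 ± 0.27 (adjusted p = 9.01e-05). NDA1 (AT1G07180), an alternative NADH dehydrogenase of mitochondria, was higher by 0.37 ± 0.11 (adjusted p = 0.0271) and lost its call in 5 of the 8 fits that left out 1 array. The alternative oxidase AOX1A (AT3G22370) did not pass (0.36 ± 0.21, adjusted p = 0.32).

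HSA32 (AT4G21320), a heat-stress protein that prolongs acquired heat tolerance, had 6.21, 5.62, 6.63 and 6.34 in the 1 h cap, 4.95, 4.60, 4.41 and 4.75 in the 1 h radicle, and 5.29, 5.29, 5.37 and 4.95 in the dry end. The order was cap, dry end, radicle, with no cap array inside the range of another group. HSA32 was higher in the cap than in the dry end by 0.98 ± 0.20 (adjusted p = 0.000373). HSC70-3 (AT3G09440), a cytosolic chaperone, was higher by 0.75 ± 0.23 (adjusted p = 0.0247), a call lost in 4 of the 8 fits that left out 1 array. The other 23 of 25 heat shock genes did not pass, among them HSP101 (AT1G74310) at 0.59 ± 0.24 (adjusted p = 0.114).

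OGG1 (AT1G21710), which removes oxidised guanine from DNA, was higher among 7 repair genes, with 4.60, 4.66, 5.41 and 4.72 in the cap, against 3.98, 3.85, 4.28 and 4.41 in the dry end (0.72 ± 0.15, adjusted p = 0.000694, but 0.0519 with the 8 arrays alone). PARP3 (AT5G22470), a poly(ADP-ribose) polymerase of seeds, stood 0.75 ± 0.26 higher without passing (adjusted p = 0.0516). CSD3 (AT5G18100), a superoxide dismutase, was the 1 of 21 redox genes that passed, lower in the cap with a mean of 3.42 ± 0.13 under the brightness limit, against 4.03 ± 0.41 in the dry end (adjusted p = 0.00898). It did not pass without replicate 2 of the dry end or with the 8 arrays alone (adjusted p up to 0.128). CAT1 (AT1G20630), a catalase, averaged 7.65 ± 0.30 in the cap and 6.87 ± 0.49 in the dry end and did not pass (adjusted p = 0.0517), but passed under 8 of 15 alternatives.

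Aquaporins of the vacuole membrane went in opposite directions. TIP3;2 (AT1G17810), a seed-type aquaporin, had 7.90, 7.26, 7.75 and 7.79 in the 1 h cap, against 6.74, 6.77, 6.68 and 7.16 in the dry end (0.84 ± 0.20, adjusted p = 0.00298). TIP1;2 (AT3G26520), a type of growing tissue, had 4.23, 4.77, 3.44 and 3.94 in the cap, 5.29, 4.90, 5.04 and 5.74 in the radicle, and 5.15, 5.22, 5.04 and 4.78 in the dry end. Its cap arrays were all lower than the dry arrays, though replicate 2 came close (-0.95 ± 0.27, adjusted p = 0.016). TIP1;2 lost its call in 3 of the 8 fits that left out 1 array (adjusted p up to 0.126). The other 12 of 14 aquaporins did not pass.

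Cytosolic ribosomal protein genes had 19 of 22 differences negative and a median of -0.22, beside -0.02 over all probe sets. The share of negative differences over all probe sets was not counted. The mean level of these genes was 8.36 to 8.68 on the cap arrays, 8.79 to 9.05 on the radicle arrays and 8.67 to 8.82 on the dry-end arrays. The ranges of the cap and the dry end overlapped. One of the 22 passed, RPL28A (AT2G19730), at 4.99 ± 0.20 in the cap and 5.47 ± 0.13 in the dry end (SD, n = 4 each; adjusted p = 0.0478). The call was lost in 7 of the 8 fits that left out 1 array (adjusted p up to 0.164). The brighter RPS18A (AT1G22780) had non-overlapping arrays but did not pass (-0.54 ± 0.19, adjusted p = 0.0622). None of 17 ribosome assembly factors and none of 13 replication and cell cycle genes passed. Of 10 proteasome subunits PAE1 (AT1G53850) was lower (-0.61 ± 0.19, adjusted p = 0.0314), with overlapping arrays and a call lost in 4 of the 8 fits that left out 1 array.

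Of 10 nuclear photosynthesis genes LHCB5 (AT4G10340), a minor antenna protein, was higher, with 4.15, 4.72, 4.26 and 4.74 in the 1 h cap, against 3.81, 3.60, 3.72 and 3.76 in the dry end (0.75 ± 0.12, adjusted p = 1.95e-06). PORB (AT4G27440), which makes chlorophyll precursors in light, was lower, with a dim cap mean of 3.47 ± 0.14 against 3.91 ± 0.28 in the dry end (adjusted p = 0.0413, lost in 5 of the 8 fits that left out 1 array). None of 17 genes of light perception passed. GI (AT1G22770), a clock protein, was higher among 11 clock genes, with 5.85, 5.74, 5.35 and 6.22 in the cap, against 4.91, 4.80, 4.99 and 4.62 in the dry end (0.96 ± 0.29, adjusted p = 0.0243). GI lost its call in 4 of those 8 fits (adjusted p up to 0.113). ACT7 (AT5G09810), the main actin of growing tissue in Arabidopsis, was higher among 15 tubulins and actins, at 7.57 ± 0.16 in the cap and 6.77 ± 0.14 in the dry end (SD, n = 4 each; adjusted p = 0.00241). Of 8 listed vacuolar processing enzymes and cysteine proteases 6 were measured, and none of those 6 passed.

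**Figure D3:**
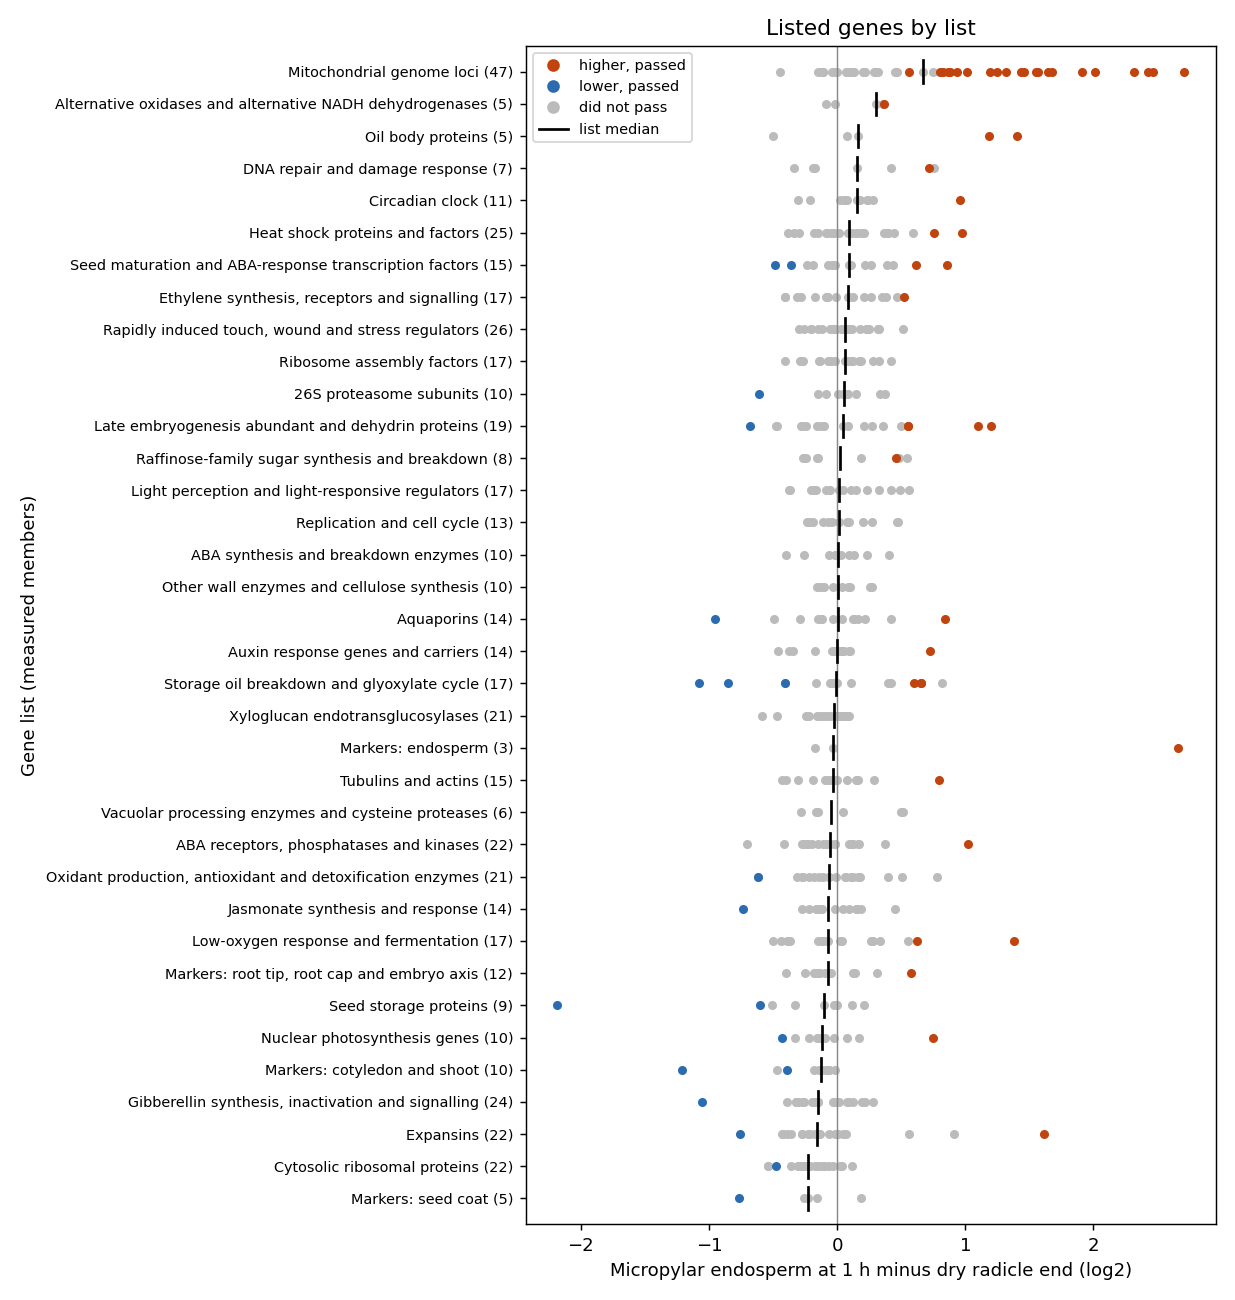
Log2 difference of the 1 h cap minus the dry end (horizontal axis) for every measured member of 36 gene lists (rows, ordered by median, with the number measured). Orange points passed as higher, blue points passed as lower, grey points did not pass, and black bars are medians. The mitochondrial loci had a median of 0.67, whereas the other lists had medians of -0.23 to 0.30.

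Outside the mitochondrial list 28 of 493 listed genes were higher and 19 lower (9.53% together, beside 8.18% of all probe sets). Of the 35 lists other than the mitochondrial one 8 had no passing member. Of a panel of 14 germination genes EPR1 and ABI5 passed and the other 12 did not, again beside 8.18% of all probe sets.

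Among codes without a symbol the largest differences were seen for AT1G71250 and ATMG00560 (higher) and AT4G36880 and AT5G24140 (lower). AT1G71250 had 7.46, 6.49, 7.15 and 7.35 in the 1 h cap, 3.08, 3.68, 3.27 and 3.16 in the 1 h radicle, and 4.45, 4.33, 4.88 and 4.53 in the dry end. The dry end again lay between the tissues (for AT1G71250 2.56 ± 0.25 in the cap, adjusted p = 8.64e-13, and at least 1.25 ± 0.25 lower in the radicle, adjusted p = 0.00118). The mitochondrial code ATMG00560 was higher in both tissues, by 2.46 ± 0.29 in the cap and 2.08 ± 0.29 in the radicle (adjusted p = 1e-09 and 8.79e-07). AT4G36880 had 3.59, 3.53, 3.88 and 3.74 in the cap, 4.48, 4.51, 4.55 and 4.96 in the radicle, and 5.55, 5.69, 5.46 and 5.42 in the dry end. Both tissues were below the dry end for AT4G36880 (-1.85 ± 0.24 in the cap, adjusted p = 1.53e-08, and -0.91 ± 0.24 in the radicle, adjusted p = 0.0187). AT5G24140 was lower in the cap (-1.70 ± 0.23, adjusted p = 4.05e-08), with -0.29 ± 0.23 in the radicle (adjusted p = 0.612).

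Several high values of the 1 h cap were lower at later stages. EPR1 averaged 9.42 ± 0.06 at 1 h and 7.26 ± 0.33 at 3 h in the cap, and 6.76 ± 0.23 in the dry end (SD, n = 4 each). EXPA7 averaged 5.04 ± 0.31 at 1 h and 3.76 ± 0.19 at 3 h, and was dim in the dry end and at every cap stage after 3 h. EPR1, EXPA7, SUS3, OLEO1, ECP63, TIP3;2, LHCB5 and ABI5 each had their highest mean of all 27 groups in the 1 h cap. CRA1 averaged 6.25 ± 0.75 at 1 h and 3.89 ± 0.07 at 3 h, below the 8.44 ± 0.10 of the dry end. COX3 had its highest mean of the cap stages at 3 h (10.45 ± 0.53), beside 9.37 ± 0.67 at 1 h. These stage levels are given as a description, with no test.

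**Figure D4:**
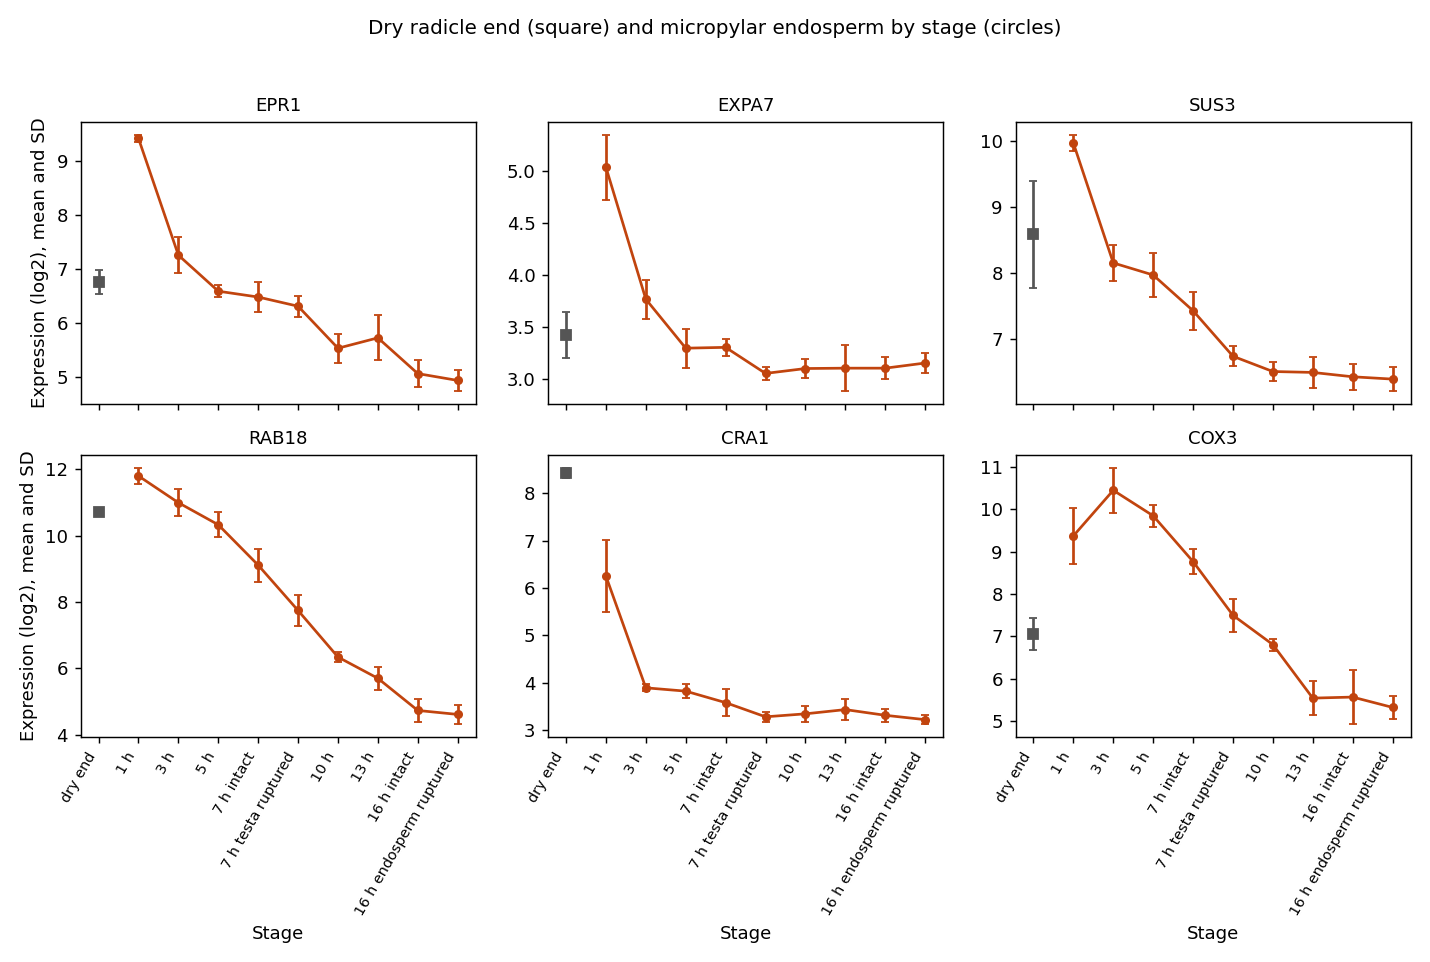
Mean log2 expression with SD (vertical axes) of 6 genes in the dry end (square) and at 9 cap stages (circles, in order of time, with the 7 h and 16 h harvests sorted by rupture), n = 4 arrays each. EPR1, EXPA7, SUS3 and RAB18 were highest at 1 h, CRA1 was highest in the dry end, and COX3 was highest at 3 h.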

How the data were processed

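RNA of seed tissues was hybridised to 1-colour arrays, 1 sample to an array, from 100 ng of RNA labelled with biotin by a 3' amplification kit, per the labels' protocols. The deposited values are log2 expression that the authors made; the submitters' processing notes name RMA and affy. RMA corrects background, equalises array distributions and summarises probe sets, so it shrinks differences of dim probe sets and reports changes relative to the bulk of transcripts. Neither software versions nor the array's design are given in the sources used here. The lowest value was 2.54 and the highest 13.0, and the medians of single arrays lay between 4.04 and 4.17. Control probe sets, had the table held any, were removed before these values were taken.

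One limma model (version 3.58.1 under R 4.3.3) with a coefficient for each of the 27 groups was fitted to the 107 arrays, leaving 80 residual degrees of freedom beside 6.04 prior ones, with two-sided tests and Benjamini-Hochberg adjustment over 13895 probe sets of each comparison. Differences carry limma's standard error and levels carry the SD. On simulated arrays with the same groups the fit was checked to recover known differences. Symbols come from 36 lists of Arabidopsis loci, 506 of 668 loci being measured, plus all 47 mitochondrial codes, since the table pairs no code with a name. The members and lists were chosen with earlier results of these data known.

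Named were the 10 higher and 10 lower listed genes with the largest passing difference and no overlap, up to 4 passing and up to 2 other members of each list with a passing member, and a panel of 14 genes. Of codes without a symbol the 2 highest and the 2 lowest were named. Mitochondrial loci with a symbol beyond this rule (ATP1, NAD3, RPS7-MT, NAD4, ATP9) were chosen after their values were seen. Same-numbered replicates of the cap and the dry end deviated together weakly (correlations of 0.036 to 0.066), so they were not treated as pairs. Alternatives tried were robust moderation with an intensity trend, a brightness filter, centring, quantile normalization, array weights, the compared arrays alone, a replicate block and each array left out.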

Additional observations from a re-analysis of the deposited data

Results flagged for a closer look

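Single arrays were checked in the 354 sets of 4 values that the named genes have in the 1 h cap, the 1 h radicle and the dry end, and 15 stood apart from their group by Dixon's test at the 95% level. Chance alone flags about 1 set in 20, so 15 is no more than chance gives. In the 1 h cap these were PYL7 replicate 1 (4.24), NDA1 replicate 1 (3.83), KAN2 replicate 2 (4.41), IAA1 replicate 3 (3.89), AS1 replicate 3 (4.80) and OGG1 replicate 3 (5.41). In the 1 h radicle they were HSFA9 replicate 1 (3.35), CAT1 replicate 1 (6.32), MATR replicate 3 (7.87), ICL replicate 3 (8.13) and AT4G36880 replicate 4 (4.96). In the dry end they were HAI3 replicate 1 (4.35), EXPA8 replicate 1 (4.98), EPR1 replicate 4 (7.10) and OLEO5 replicate 4 (6.81). EPR1 kept its order with that array, since its other dry arrays were at 6.63 to 6.68 and all cap arrays above 9. The difference between the responses of cap and radicle against the same dry arrays equals the difference between the cap and the radicle at 1 h, so it was not tested apart.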

How the results depend on the processing

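The 1136 calls of the 1 h cap against the dry end became 1141 with an intensity trend and robust moderation, 1124 with the brightness filter, 1134 with centring, 1171 with quantile normalization, 972 with array weights and 779 with the 8 arrays alone. Leaving out 1 array gave 737 to 1178. Of these calls the lower ones, 543, became 322 with the 8 arrays alone and 336 to 575 with 1 array left out. With a log2 difference of at least 1 as well, 165 passed. The replicate block gave 1129 calls, and each array correlated best with its own number, a hint from the data and not from the design. The 408 calls of the radicle became 122 with array weights, 20 with the compared arrays alone and 259 to 498 with 1 array left out. The 1721 calls between cap and radicle became 1103 with array weights, 741 with the compared arrays alone and 1201 to 1990 with 1 array left out. The cause was not tested. Listed genes that passed numbered 55, and 41 to 57 under the alternatives. Of 53 passing named genes 30 passed in all 15 alternatives and 23 were lost in at least 1. Of 65 that did not pass, 13 passed in at least 1, and none of the named genes that passed in any fit changed direction. Dim levels bound the size of differences.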
